A study of Mus musculus with 18 samples.

Results

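Enteroendocrine cells are the hormone-producing cells of the gut epithelium, and 10 of their genes were followed across RNA-sequencing of mouse small intestinal organoids. The genes were chosen by name for their function, with earlier results of these data known. All 10 were found among the 55487 genes of the deposited count table. They encode the granule proteins chromogranin A (Chga) and chromogranin B (Chgb), the serotonin-synthesizing enzyme tryptophan hydroxylase 1 (Tph1), and the peptide hormones proglucagon (Gcg), cholecystokinin (Cck), secretin (Sct), glucose-dependent insulinotropic polypeptide (Gip), somatostatin (Sst), neurotensin (Nts) and peptide YY (Pyy). All 10 were among the 15247 genes that passed the filter on low counts. In GRCm38, Gcg and Chgb lie on chromosome 2 (chr2:62474530-62483650, minus strand, and chr2:132781278-132795079, plus strand), Gip and Pyy on chromosome 11 (chr11:96024545-96030831, plus, and chr11:102106676-102107832, minus), and Tph1 and Sct on chromosome 7 (chr7:46644641-46672537 and chr7:141278330-141279133, both minus). Chga lies at chr12:102554969-102565028 (plus), Cck at chr9:121489824-121495694 (minus), Sst at chr16:23889573-23890958 (minus) and Nts at chr10:102481756-102490486 (minus), and the values below are reads on their exons.

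Organoids are 3-dimensional cultures grown from crypts, which hold stem cells and their differentiated offspring. Those sequenced came from wild-type female C57BL/6 mice and were exposed for 4 days to 1 µM norepinephrine (n = 5), which stimulates α- and β-adrenergic receptors, to its HCl vehicle (n = 4), to 1 µM UK14304 (n = 5), a synthetic agonist of α2-adrenergic receptors, or to its DMSO vehicle (n = 4). Each library carries an m number, from m1 to m5, which the labels do not spell out. HCl and DMSO libraries exist for m1 to m4 and agonist libraries for m1 to m5, and each agonist library from m1 to m4 deviated from its group mean together with the vehicle library of the same number. Whether libraries of different m numbers came from different animals is not stated in the labels, so the p-values measure the spread between these libraries. Organoids of this kind hold epithelium alone, without nerves, vessels or blood. Of the 10 markers of neurons and glia, 9 of mesenchyme, endothelium and immune cells and 5 of the pancreas, 2, 3 and 1 passed the filter, and the summed levels of the 3 lists stayed between 1.5 and 8.55 CPM (counts per 1000000 counts of the library, scaled with edgeR's TMM factors) in every library. The defining markers Dbh of noradrenergic neurons and Ins1, Ins2 and Ppy of the islet were at 0 in all 18 libraries.

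Enteroendocrine cells are few, sit singly among enterocytes, and store their products in dense-core granules until a nutrient, a neurotransmitter or stretch triggers release across the basal membrane. Their hormones are unevenly spread along the gut: cells that make Gip, Cck and Sct are known to be most frequent in the proximal small intestine, and cells that make Gcg, Nts and Pyy in the distal part. Serotonin and somatostatin cells are found along its whole length. The α2-adrenergic receptors, which both agonists stimulate, couple to inhibitory G proteins and lower cyclic AMP, a second messenger that promotes hormone release. In bulk RNA, fewer enteroendocrine cells and less RNA of a gene per cell cannot be told apart.

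The upstream sequences of 5 of the genes are shown because these genes divided the libraries by m number most clearly, with Gcg on one side and Chga, Chgb, Gip and Sst on the other. RefSeq start sites (GRCm38.p6) were found for all 10 genes, with 2 start sites each for Tph1 and Pyy. For Chga, Gip and Gcg the whole 250 bases before the start site are given, since none of these bases is counted as exon in the deposited table. For Chgb and Sst the 30 bases around the motif are given. Of the 250 bases before their start sites, 250 for Chgb and 114 for Sst are counted as exon there. Both motifs lie inside the gene spans given above. Capitals mark TGACG (or CGTCA), the core of the cyclic AMP response element, in Chga, the whole palindromic element TGACGTCA in Chgb and Sst, the GATA motif AGATAA in Gip, and in Gcg the E-box CAGATG and the TATA box as TATAAA or TTTATA. All are written 5′ to 3′ on the strand of the gene.
Chga (chr12:102554691-102554940, plus strand): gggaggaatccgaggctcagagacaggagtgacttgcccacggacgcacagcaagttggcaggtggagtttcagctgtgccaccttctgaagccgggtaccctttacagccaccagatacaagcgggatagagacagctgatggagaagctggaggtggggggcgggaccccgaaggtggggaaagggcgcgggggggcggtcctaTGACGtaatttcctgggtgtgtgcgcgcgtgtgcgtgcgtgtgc
Gip (chr11:96024295-96024544, plus strand): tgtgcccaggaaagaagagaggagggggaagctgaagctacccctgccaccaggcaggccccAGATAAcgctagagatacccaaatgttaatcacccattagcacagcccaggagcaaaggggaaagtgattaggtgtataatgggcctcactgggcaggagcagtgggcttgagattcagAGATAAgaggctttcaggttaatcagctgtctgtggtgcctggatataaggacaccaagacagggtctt
Gcg (chr2:62483654-62483903, minus strand): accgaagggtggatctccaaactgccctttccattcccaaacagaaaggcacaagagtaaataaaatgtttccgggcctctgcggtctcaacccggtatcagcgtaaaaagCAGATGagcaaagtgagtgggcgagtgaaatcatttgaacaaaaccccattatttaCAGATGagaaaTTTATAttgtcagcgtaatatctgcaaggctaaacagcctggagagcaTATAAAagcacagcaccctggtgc
Chgb (chr2:132781559-132781588, plus strand): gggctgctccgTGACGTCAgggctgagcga
Sst (chr16:23890874-23890903, minus strand): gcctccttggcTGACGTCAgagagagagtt

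The cyclic AMP response element begins 72 bases before the start site of Chgb and 48 bases before that of Sst. It was found in 2 of the 10 genes and in 1.55% of the 32851 promoters searched on both strands over the same 250 bases. Its core TGACG, which every full element contains, was in 6 of the 10 genes and in 17.8% of promoters. AGATAA was in 3 of the 10 genes (Cck, Gip and Nts) and 9.99% of promoters, CAGATG in 3 (Gcg, Cck and Sct) and 14.4%, and TATAAA in 2 (Gcg and Sct) and 12.4%. These are matches of letters, and nothing in the libraries measured whether a factor was bound there.

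The members spanned a wide range of levels. CPM per kilobase of merged exons was used to compare genes, since longer transcripts gather more reads. On that scale Gip was highest with a median of 147 over the 18 libraries (range 106 to 191), followed by Chgb with 114 (92.2 to 136), and Gip was above Chgb in all 18 libraries. Sst (28.6, range 17.3 to 45.5), Gcg (25.6, 19.2 to 44.4) and Chga (24.9, 20.3 to 30.3) followed with ranges that overlapped, so that their order was not settled by these libraries. Cck had a median of 13.1 (9.74 to 19.0). Sct (2.88, 1.57 to 4.72), Nts (2.86, 0.909 to 7.05), Tph1 (2.00, 1.6 to 2.43) and Pyy (1.37, 0.337 to 3.03) were lowest and also overlapped.

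Chgb alone took between 49.4% and 57.1% of the summed CPM of the 10 genes. Raw counts per library ran from 6060 to 9289 for Chgb, from 230 to 370 for Tph1, from 28 to 228 for Nts, from 22 to 70 for Sct and from 5 to 44 for Pyy, so that the last 3 were measured least precisely. None of the 10 shares exon positions with another gene of the table, and at most 0.096% of their 50-base sequences occur in transcripts of other genes, so near-identical copies took few of their reads. Adra2a, which encodes the α2A-adrenergic receptor, was present at 29.2 ± 1.61 CPM with HCl vehicle (SD, n = 4), 27.4 ± 1.62 with norepinephrine (n = 5), 28.3 ± 2.45 with DMSO vehicle (n = 4) and 27.4 ± 2.27 with UK14304 (n = 5). The groups overlapped, and Adra2a did not pass the test with either agonist (log2 fold change -0.09 and -0.05, edgeR quasi-likelihood test, adjusted p = 0.734 and 0.815).

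The first comparison asked whether norepinephrine altered hormone and granule transcripts. None of the 10 genes passed an adjusted p of 0.05 against HCl vehicle, and no gene of the 15247 tested did (0%). At an unadjusted p under 0.05, 0 of the 10 genes and 6.18% of all genes would have been counted. The level of the granule proteins and of Tph1 lay close to that of the vehicle, and the values of every member overlapped between the groups, as did all but 1.42% of all genes.

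Chgb, the most abundant granule transcript in reads, stood at 311, 374, 263 and 326 CPM in the HCl libraries m1 to m4 and at 315, 357, 264, 358 and 299 CPM in the norepinephrine libraries m1 to m5. The means were 319 ± 45.6 CPM (SD, n = 4) and 319 ± 40.0 CPM (n = 5), and the low value in each group belonged to m3. The log2 fold change of Chgb was 0.00 (SE 0.121). Chga, its partner in granule formation, was at 69.3 ± 9.19 CPM with vehicle and 69.6 ± 9.87 CPM with norepinephrine, a log2 fold change of 0.01 (SE 0.109). Tph1, which makes the first step from tryptophan to serotonin, was at 12.1, 14.3, 10.1 and 12.5 CPM with vehicle and at 11.2, 14.8, 9.90, 13.9 and 12.2 CPM with norepinephrine. These groups overlapped fully, with a log2 fold change of 0.02 (SE 0.131).

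Among the peptide hormones, Gcg, the precursor of glucagon-like peptides, was at 36.4, 37.4, 57.2 and 32.4 CPM in the HCl libraries and at 47.0, 29.8, 53.8, 35.9 and 42.2 CPM in the norepinephrine libraries. Again m3 stood apart, here as the highest of both groups, and the log2 fold change was 0.03 (SE 0.283). Gip, the incretin of the upper gut, was at 101.8 ± 17.5 CPM and 100.1 ± 21.1 CPM. Sst, which restrains the release of other gut hormones, was at 22.6 ± 7.56 CPM and 21.1 ± 6.78 CPM. Cck, which contracts the gallbladder and slows gastric emptying, was at 18.6, 24.8, 14.6 and 18.9 CPM with vehicle and at 16.0, 17.3, 12.7, 22.3 and 14.7 CPM with norepinephrine. It was lower with norepinephrine in 3 of the 4 m numbers that had both libraries, and its log2 fold change of -0.21 (SE 0.165) did not pass the test (edgeR, adjusted p = 0.741).

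The fitted difference farthest from 0 was that of Nts, a peptide that promotes fat absorption. Nts was at 3.66, 3.47, 6.48 and 4.76 CPM in the HCl libraries and at 3.41, 2.11, 4.60, 4.18 and 2.77 CPM in the norepinephrine libraries. The norepinephrine library was the lower in all 4 m numbers with both, but the groups overlapped and the log2 fold change of -0.42 (SE 0.505) did not pass the test (edgeR, adjusted p = 0.815). Sct, which drives bicarbonate secretion, and Pyy, which slows transit, had log2 fold changes of -0.16 (SE 0.277) and -0.12 (SE 0.468). Over the 10 genes the median log2 fold change was -0.06, against -0.01 over all genes tested, and 6 of 10 fitted values were below 0, against 52.4% of all genes (also 6 of 10 in the fit with the m number as a block, against 52.7%).

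How much change these libraries leave room for differs by gene. With the m number as a block in the fit, which removes the differences between m numbers, the 95% confidence interval of the norepinephrine effect ran from -3.36% to 7.22% for Chgb, from -6.04% to 8.31% for Chga, from -9.58% to 5.42% for Gip and from -7.68% to 14.9% for Tph1. It ran from -10.7% to 23.9% for Gcg and from -25.4% to 8.89% for Cck. For Nts it reached from -45.7% to 9.65% and for Pyy from -46.4% to 64.9%. None of the 10 passed in the blocked fit either, in which 0.105% of all genes did, and 0 of 10 had an unadjusted p under 0.05 there, against 8.40%. Leaving out m4 brought 2 members past the threshold: without it, the blocked fit gave Cck a log2 fold change of -0.28 (edgeR, adjusted p = 0.0356) and Sst -0.24 (edgeR, adjusted p = 0.033), in a fit where 15.1% of all genes passed.

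The second comparison asked the same of UK14304 against DMSO vehicle. None of the 10 genes passed, against 6 of all genes (0.0394%), and at an unadjusted p under 0.05 the count was 0 of 10, against 11.2% of all genes. The fitted values of all 10 genes were below 0, from -0.05 for Chga to -0.27 for Pyy on the log2 scale, against 51.3% of all genes below 0. This direction was not shared by every setting, since in the blocked fit Chga and Sct came out at 0.0198 and 0.0314 once the trend on GC content was removed, Sct at 0.0295 with a term for the ribosomal RNA share, and Nts at 0.0043 with DESeq2. The 10 genes all belong to enteroendocrine cells and their values are not independent of each other, so the count of directions carries no test.

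Chgb was at 311, 363, 254 and 342 CPM in the DMSO libraries m1 to m4 and at 294, 333, 253, 336 and 274 CPM in the UK14304 libraries m1 to m5. The UK14304 library was the lower in each of the 4 m numbers with both, while the m numbers spanned 254 to 363 CPM with DMSO alone. The log2 fold change was -0.09 (SE 0.121), and the groups overlapped. Tph1 was at 12.6, 15.0, 10.4 and 14.8 CPM with DMSO and at 12.7, 13.2, 10.3, 12.0 and 9.94 CPM with UK14304, a log2 fold change of -0.18 (SE 0.13). Its adjusted p of 0.58 was the lowest of the 10 genes in the edgeR test.

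Sst was at 20.6, 32.8, 14.9 and 25.7 CPM with DMSO and at 19.5, 25.3, 14.7, 20.6 and 21.1 CPM with UK14304, lower in all 4 m numbers with both and with a log2 fold change of -0.21 (SE 0.277). Cck was at 20.0, 23.1, 15.7 and 17.0 CPM with DMSO and at 18.5, 18.0, 16.9, 13.8 and 14.0 CPM with UK14304, a log2 fold change of -0.22 (SE 0.164). For both genes the groups overlapped, as for all 10 members and all but 3.51% of genes tested. Gcg was at 45.1, 28.8, 66.3 and 39.1 CPM with DMSO and at 41.2, 28.7, 65.4, 36.6 and 30.3 CPM with UK14304, so that each pair with the same m number was far closer than the range within either group. Its log2 fold change was -0.15 (SE 0.281). Gip was at 103 ± 15.5 CPM (SD, n = 4) and 97.9 ± 12.2 CPM (n = 5), and Chga at 69.5 ± 7.42 CPM and 66.9 ± 6.74 CPM.

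Nts ranged from 1.14 to 8.79 CPM with DMSO and from 1.61 to 7.89 CPM with UK14304, with the highest value of both groups in m3. Its log2 fold change of -0.17 (SE 0.499) was smaller than that range and reached 0.45 without the DMSO library m3. Sct was at 1.94 ± 0.372 CPM and 1.82 ± 0.395 CPM, and Pyy at 1.07 ± 0.354 CPM and 0.897 ± 0.397 CPM. In the blocked fit 1.22% of all genes and none of the 10 passed, and 14.8% and none had an unadjusted p under 0.05. Its 95% interval of the UK14304 effect was -9.11% to 0.81% for Chgb, -9.9% to 3.79% for Chga, -18.9% to 0.455% for Tph1, -24.6% to 2.85% for Sst and -53.1% to 39.0% for Pyy. The ribosomal RNA share of the libraries moved with this comparison, being over 1% in 3 of 4 DMSO libraries and in 1 of 5 UK14304 libraries. With that share as a further term in the blocked fit none of the 10 genes passed.

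**Figure D1:**
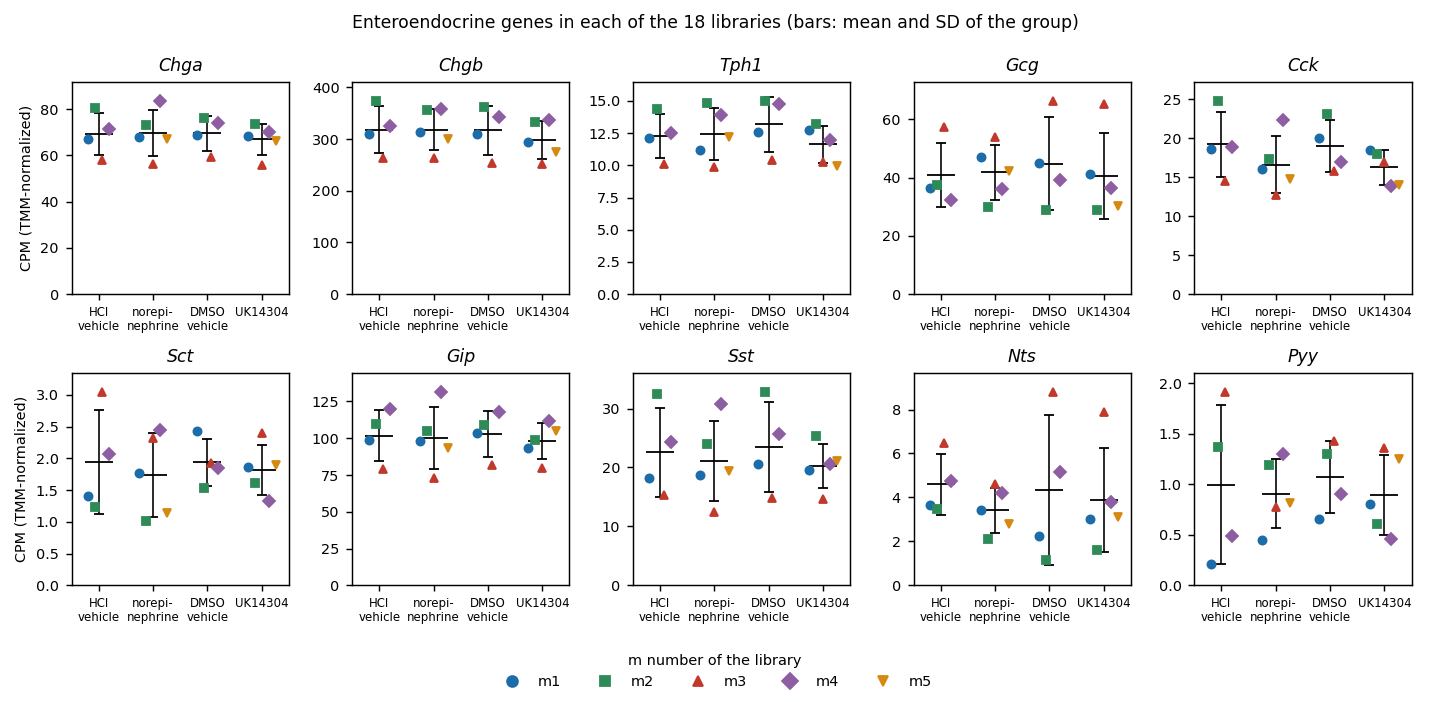
CPM of each of the 10 genes (vertical axes from 0, one panel per gene) in the 18 libraries, by treatment group, with color and symbol for the m number and black bars for the group mean and SD. The m3 libraries (red triangles) lie lowest in the Chga, Chgb, Gip and Sst panels and highest in the Gcg panel within every group, and the groups overlap in all panels.

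**Figure D2:**
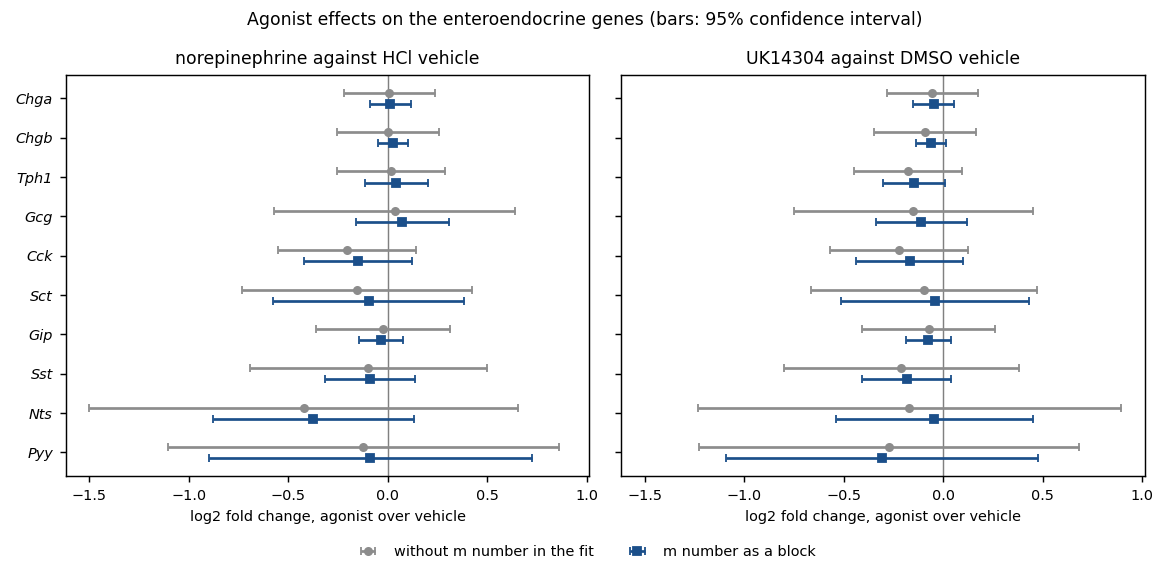
Log2 fold change of each gene with norepinephrine (left) and UK14304 (right) against its own vehicle, with 95% confidence intervals, from the fit without the m number (grey circles) and with it as a block (blue squares). Every interval includes 0, and those of Chgb, Chga and Gip are narrowest once the m number is in the fit.

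The 2 agonists were then compared through the difference of their effects, UK14304 minus norepinephrine, since each has its own vehicle. None of the 10 genes and none of all genes (0%) passed the test of this difference with edgeR, with or without the block, and at an unadjusted p under 0.05 there were 0 of the 10 and 1.51% of all genes. The fitted differences ran from -0.19 for Tph1 to 0.25 for Nts on the log2 scale. With the block, the 95% interval of the difference was -12.4% to 0.996% for Chgb, -24.6% to 1.72% for Tph1, -29.5% to 10.01% for Gcg and -22.1% to 103% for Nts. Effects that differed by amounts inside these intervals could not have been told from equal ones.

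**Figure D3:**
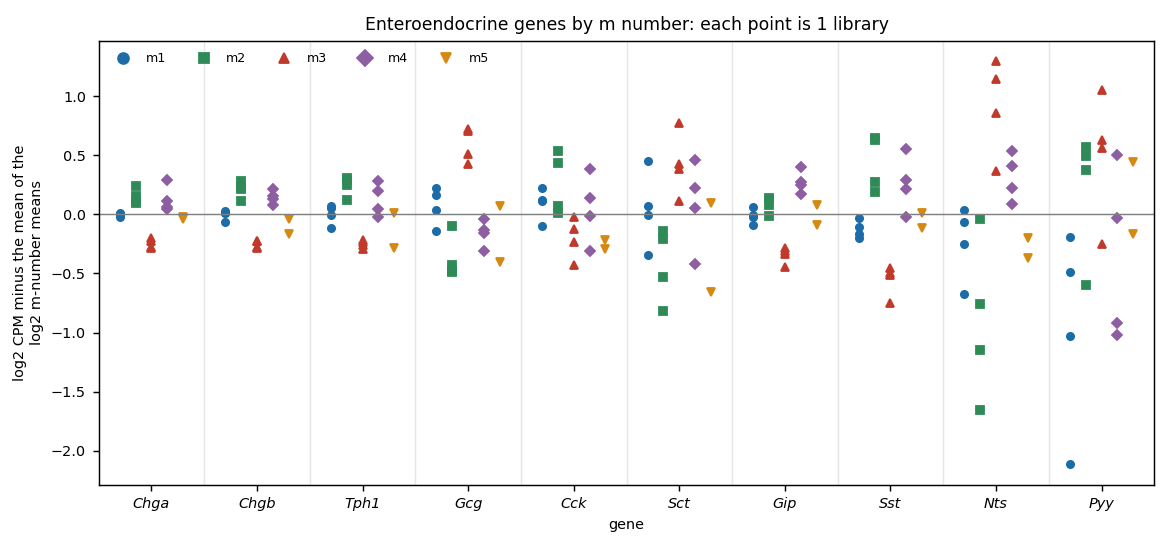
Log2 CPM of each gene in each library (points) relative to the mean of the log2 values of the 5 m-number means, by gene and m number. The 4 m3 libraries lie together at one end for Gcg (above) and for Chga, Chgb, Gip and Sst (below), and the spread is widest for Nts and Pyy.

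The libraries differed far more by m number than by treatment. This comparison was added after the values had been seen. With the block in the fit, 7 of the 10 genes passed an F test of the m-number terms (edgeR, largest adjusted p among them 0.00122), against 13.8% of all genes, and these were Chga, Chgb, Tph1, Gcg, Gip, Sst and Nts. Cck, Sct and Pyy did not pass (edgeR, adjusted p = 0.129, 0.155 and 0.176). The median distance between the highest and the lowest m number was 0.72 on the log2 scale over the 10 genes and 0.20 over all genes tested. Of the 25 pairs of libraries with the same m number, 23 had deviations from their group means that correlated by more than 0.1. The exceptions were the m4 libraries of the 2 agonists (r = -0.212) and their m5 libraries (r = 0.041). What an m number stands for is not given in the labels. The F test sets the m-number terms against the spread between libraries of the same number. Whether those libraries are independent samples of it is not known.

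The genes moved in opposite directions between m numbers. Gcg was at 53.8 to 66.3 CPM in the 4 m3 libraries, above all 14 others, which ran from 28.7 to 47.0 CPM, and its m3 mean was 1.66 times that of the other m numbers. Gip was at 73.0 to 81.6 CPM in m3, below the 93.2 to 131 CPM of all others, and 0.734 times their mean. The ratio of Gcg to Gip was therefore 0.724 to 0.817 in m3 and 0.265 to 0.481 in the other libraries, whichever treatment they had received.

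Sst was at 12.5 to 15.3 CPM in m3 and at 18.2 to 32.8 CPM in the others, 0.603 times their mean. The chromogranins, which are packed into the granules of nearly all enteroendocrine cells, were also low there. Chgb was at 253 to 264 CPM in m3 and 274 to 374 CPM elsewhere, and Chga at 55.9 to 59.3 CPM and 66.4 to 83.6 CPM. So 5 of the 10 genes had all m3 libraries outside the range of the others, against 4.49% of all genes. Nts was 2.19 times as high in m3, at 4.60 to 8.79 CPM against 1.14 to 5.18 CPM, with overlap. Tph1 and Sct, at 0.786 and 1.44 times, overlapped too.

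At the other end, m2 had the highest mean for 5 of the 10 genes, namely Chga, Chgb, Tph1, Cck and Sst, and the lowest for Gcg, Sct and Nts. Gcg in m2 was at 28.7 to 37.4 CPM, and Nts at 1.14 to 3.47 CPM, and Sst at 23.96 to 32.8 CPM. Thus m2 and m3 stood at opposite ends for 7 of the 10 genes. The calls rested partly on m3: without it, 4 of the 10 genes passed, which were Chgb, Gip, Sst and Nts, against 3.56% of all genes, and Chga, Tph1 and Gcg did not (edgeR, adjusted p = 0.288, 0.246 and 0.165). In the vehicle libraries alone 7 passed again, with Cck and Pyy in place of Gcg and Nts (edgeR, adjusted p of the latter 0.083 and 0.15). In that fit 2450 of 14546 genes passed.

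Genes that mark the region of the small intestine moved with the m numbers as well. The list was written after the members' values had been seen and before those of the list. All 11 of its genes reported here passed the F test of the m-number terms (edgeR, largest adjusted p 0.0366), against 13.8% of all genes. In 6 of the 11 the m3 libraries lay outside the range of all others, against 4.49% of all genes. Of 7 proximal genes, 4 were lower in every m3 library than in all others. Pdx1, a homeodomain factor of the duodenum, was at 0.739 to 1.22 CPM in m3 and at 10.6 to 36.3 CPM in the others. Cybrd1, the duodenal iron reductase, was at 58.2 to 114 CPM and 166 to 701 CPM. Gata4 and Onecut2 were the other two, while Lct, the gene for lactase, was higher in m3 at 393 to 437 CPM against 187 to 389 CPM.

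Of 4 distal genes, Osr2 was higher in every m3 library, at 47.5 to 56.7 CPM against 15.9 to 33.7 CPM. The bile acid genes Fabp6 and Slc10a2 and the hormone gene Fgf15 overlapped between m3 and the others. Their means were highest in m3, at 6.56, 7.12 and 2.97 CPM. The next highest mean was that of m2 for Fabp6 and Slc10a2 (3.99 and 6.00 CPM) and that of m5 for Fgf15 (2.37 CPM). Markers of other cell types moved too. The summed CPM of the enterocyte markers averaged 6715 in m3 and 8628 to 9807 in the other m numbers, and that of the stem cell markers 6230 and 4461 to 5470. Among the stem cell markers, Ascl2, Slc12a2 and Axin2 had their highest mean in m3. Lgr5 averaged 184 CPM there and 174 to 205 CPM in the other m numbers. The part of the regional genes or of these markers in the differences between hormones was not tested. The m3 libraries held 22.4 to 25.8 M counts, against 21.9 to 27.9 M in all. Their ribosomal RNA share was 3.06% with DMSO vehicle, the highest of all libraries. It was 0.377% with HCl vehicle, 0.313% with norepinephrine and 0.619% with UK14304. The part of depth or of that share in the m3 differences was not tested.

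**Figure D4:**
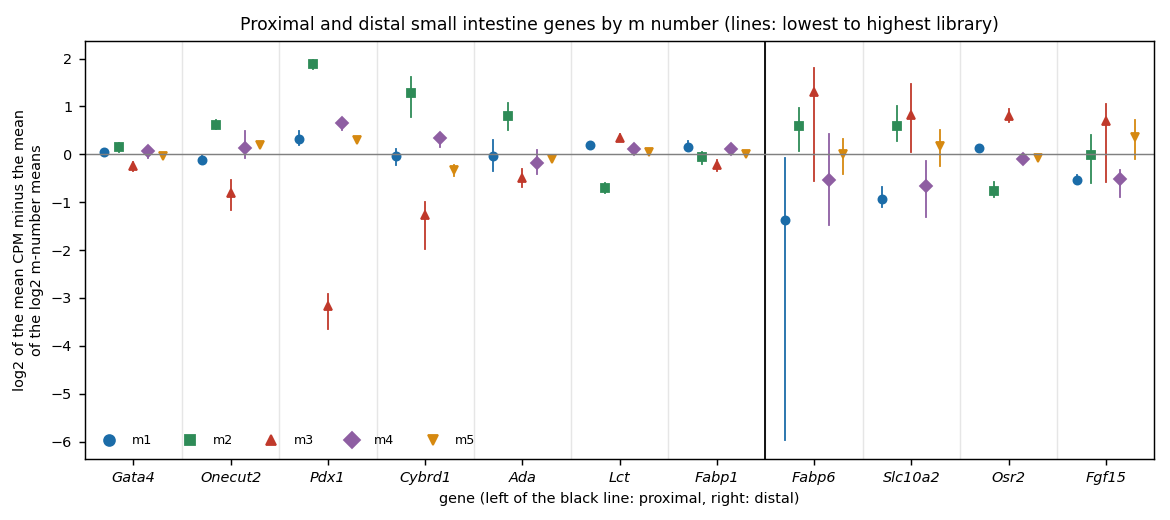
Mean CPM of 7 proximal and 4 distal small intestine genes by m number, on a log2 scale relative to the mean of the log2 m-number means, with lines from the lowest to the highest library. In m3 (red triangles) Pdx1 lies at 1.02 CPM against 11.4 to 34.1 CPM in the other m numbers, and Osr2 lies above the others.

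Lists of other genes with functions in enteroendocrine cells showed the same absence of calls with the agonists. Bulk RNA does not show which cells the reads of such genes came from. Slc5a1, for example, was at 1593 CPM with HCl vehicle, where Chgb was at 319 CPM. None of 6 tested enteroendocrine peptide genes outside the 10, 10 genes of granule proteins and peptide processing, 13 of amine synthesis, storage and exocytosis, 15 transcription factors, 10 nutrient, amine and mechanical sensors and 7 hormone receptors passed with norepinephrine or UK14304, with or without the block. Their median log2 fold changes with norepinephrine were -0.24, -0.07, 0.03, 0.11, -0.03 and 0.07, and with UK14304 -0.24, -0.18, 0.06, 0.09, -0.21 and 0.07, in the same order. Both medians over all genes were within 0.01 of 0. Of all genes, 0% passed with norepinephrine and 0.0394% with UK14304 without the block, and 0.105% and 1.22% with it. Against shares this small, an absence of calls says little about lists of this size.

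In the granule list, carboxypeptidase E (Cpe), which trims peptide precursors, had a log2 fold change of -0.18 with UK14304 and Ptprn2, a granule membrane protein, of -0.19. Vgf, a granin-like precursor, was at -0.64 with UK14304 on 6 to 39 counts per library. Among amine genes, Slc18a2 encodes a vesicular monoamine transporter, a kind of protein that loads serotonin into granules. Slc18a2 was at 4.09 ± 0.203 CPM with HCl vehicle and 5.06 ± 0.74 CPM with norepinephrine, and at 3.73 ± 0.469 CPM with DMSO and 4.80 ± 1.00 CPM with UK14304. Its log2 fold changes of 0.31 and 0.36 did not pass (edgeR, adjusted p = 0.713 and 0.398). Slc18a1, a transporter of the same kind, was higher, at 17.1, 16.7, 16.1 and 16.2 CPM in the same order of groups. The log2 fold changes of Slc18a1 were -0.04 and 0.01. The enzyme Ddc, which completes serotonin synthesis, was at 0.04 and 0.11, and Syt7, a calcium sensor of exocytosis, at -0.24 and -0.19.

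Among the transcription factors, Neurod1, Isl1 and Rfx6, which act in hormone cell differentiation, had log2 fold changes of 0.17, 0.28 and 0.19 with norepinephrine and 0.13, 0.26 and 0.09 with UK14304. Neurog3, the factor that commits progenitors to this lineage, was at -0.11 and -0.09. Of the sensors, the fatty acid receptor Ffar4 was at -0.17 and -0.29, the glucose transporter Slc5a1 at -0.04 and -0.12, and Kcnj11, a potassium channel subunit, at 0.69 and -0.22 on 5 to 22 counts. Of the other peptides, Ghrl (ghrelin) was at -0.08 and 0.12, Ucn3 at -0.28 and -0.45 and Adm2 at -0.21 and -0.57. Of the receptors, Gipr was at 0.28 and -0.03, Htr4 at -0.18 and 0.13, and Sstr1 at -0.41 and 0.24 on 4 to 13 counts.

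By m number, 3 of the 6 other peptides passed, against 13.8% of all genes: Ghrl, Ucn3 and Adm2. Ucn3 was at 0.454 to 1.1 CPM in m3 and between 1.21 and 4.66 CPM in the other libraries, and Ghrl at 4.16 to 5.39 CPM in m3 and 7.26 to 8.77 CPM in m2. In the granule list 3 of 10 passed (Scg2, Scg5 and Pam), in the amine list 3 of 13 (Ddc, Syt7 and Cplx2), in the sensor list 2 of 10 (Trpa1 and Slc5a1), among receptors 1 of 7 (Htr4) and among transcription factors 1 of 15 (Hhex). For receptors and transcription factors these counts were near or below the share of all genes. Trpa1, an irritant-gated channel of serotonin cells, was at 3.39 to 5.05 CPM in m3 and 6.01 to 10.5 CPM in the others. Of the lists for other cell types, 5 of 6 stem cell, 4 of 4 enterocyte, 5 of 5 Paneth, 2 of 4 goblet and 0 of 2 tuft cell markers passed by m number.

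Among markers of other epithelial cell types, none passed with the agonists without the block. With it, 2 of 5 Paneth cell genes, Lyz1 and Defa22, fell with norepinephrine (log2 fold change -0.37 and -0.69, edgeR, adjusted p = 0.0019 and 0.0062), and 3 of 5, Lyz1, Defa22 and Ang4, fell with UK14304 (-0.31, -0.70 and -0.27, adjusted p = 0.0031, 0.00208 and 0.022). Of 4 goblet cell genes, none passed with norepinephrine and Agr2 alone fell with UK14304 (-0.16, edgeR, adjusted p = 0.0324), while Muc2, Clca1 and Tff3 had log2 fold changes of 0.11, -0.07 and -0.23 that did not pass. None of 6 stem cell, 4 enterocyte and 2 tuft cell markers passed in either fit. Of all genes, 0.105% passed with norepinephrine and 1.22% with UK14304 in the blocked fit, and 0% and 0.0394% without the block.

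A last description asked which genes outside the 10 followed them most closely. Group means were removed from log2 CPM and the Pearson correlation with each of the 10 genes was averaged over the 18 libraries. The highest averages were 0.389 for Immp2l, 0.387 for Prag1, 0.387 for Gm5863, 0.385 for Abca2 and 0.381 for Zbtb22. The members ran in opposite directions between m numbers, and the correlation of 1 gene with single members varied widely, for Abca2 between -0.67 and 0.898. The libraries share 5 m numbers, so these values describe this set of libraries and carry no test.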

How the data were processed

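RNA of 18 organoid libraries in 4 groups was measured by sequencing of poly(A)-selected libraries. Per the methods, single reads of 50 bp were aligned to GRCm38 by STAR. The authors deposited raw counts of reads on the exons of each gene, from featureCounts, with no normalization. The submitters' processing notes name STAR 2.7.3, SAMtools 1.9 and Subread 1.6.4, whereas the file header names featureCounts 2.0.1 and Ensembl release 102. The table also holds the length of each gene's merged exons. All 18 columns were matched to samples by name and 0 per-sample columns were left unused.

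edgeR 4.0.16 under R 4.3.3 was run on these counts (robust quasi-likelihood fit of all 18 libraries, TMM factors, filterByExpr by group), with Benjamini-Hochberg adjustment over 15247 genes and a threshold of 0.05. Each agonist was set against its vehicle. Log2 CPM for correlations used a prior count of 2. The functions were checked on simulated counts with known changes. Total counts were 21.87 to 27.85 M per library, and in 7 libraries the ribosomal RNA gene CT010467.1 took over 1% of them.

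The m numbers were taken to pair the libraries, since deviations from group means correlated between the same m number in all 4 pairs of each comparison (0.119 to 0.431 and 0.155 to 0.52, against mean correlations of -0.07 and -0.09 for different m numbers). The fit with the m number as a block was run as an alternative. Among the agonists, the m4 libraries (-0.212) and the m5 libraries (0.041) did not correlate in this way. No 2 libraries of a group agreed within sampling noise.

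All 10 genes are named. Of each further list, the genes that passed in either fit are named, or else the 3 with the smallest unadjusted p in the blocked fit, with Adra2a. Neurog3, Slc18a1 and the genes that passed by m number were named after their values had been seen. The members and lists were chosen with earlier results of these data known, and the test of the m numbers after the values had been seen. Alternatives were DESeq2's size factors, no filter beyond 1 count in total, a floor of 10 counts in each library, the block without and with removal of the GC trend (lowess, span 0.3; GC known for 15229 genes) or with a term for the ribosomal RNA share, only the agonist and its vehicle, DESeq2 1.42.0, an adjusted p under 0.01, and leaving out each library or m number. Promoters came from RefSeq (GRCm38.p6). 1 gene of the regional marker list and 1 neuronal marker are not reported here. Comparisons made by the authors were not used.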

Additional observations from a re-analysis of the deposited data

How the results depend on the processing

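None of the 10 genes passed with either agonist, or for the difference between agonists, under any of the settings run, except in the blocked fit of norepinephrine without m4, where 2 did (Cck and Sst). Pyy was not tested under the floor of 10 counts in each library. The fit with the m number as a block changed no call of the 10 genes with all libraries in it. Where a fitted value crossed 0 it had not passed on either side, except that of Sst with norepinephrine, which passed below 0 without m4. The cause was not tested. With the block and the GC trend removed, the values that crossed 0 were Gip with norepinephrine (0.0032) and Chga (0.0198) and Sct (0.0314) with UK14304. With the block and the ribosomal RNA share they were Sct with UK14304 (0.0295) and Cck in the difference (0.14), and with DESeq2 and the block Pyy with norepinephrine (0.0222) and Nts with UK14304 (0.0043).

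Leaving out 1 library or 1 m number gave log2 fold changes with norepinephrine of -0.063 to 0.0900 for Chga, -0.075 to 0.092 for Chgb, -0.0604 to 0.10 for Tph1, -0.071 to 0.25 for Gcg, -0.31 to 0.15 for Sct, -0.13 to 0.075 for Gip, -0.26 to 0.13 for Sst and -0.54 to 0.43 for Pyy. With UK14304 the ranges were -0.11 to 0.0052 for Chga, -0.39 to 0.12 for Gcg, -0.21 to 0.10 for Sct, -0.16 to 0.0019 for Gip and -0.59 to 0.45 for Nts. For the difference they were -0.14 to 0.011 for Chga, -0.43 to 0.073 for Gcg, -0.16 to 0.12 for Cck, -0.24 to 0.31 for Sct, -0.15 to 0.065 for Gip, -0.33 to 0.087 for Sst, -0.18 to 0.87 for Nts and -0.80 to 0.32 for Pyy. The other ranges did not cross 0.

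By m number, 4 (without m3) to 10 (without m4) of the 10 genes passed. Of all genes, 545 of 15317 passed without m3 and 4459 of 15263 without m4. Under the settings that kept all libraries or the vehicles alone, 7 to 10 of the 10 genes passed. The 10 came with no filter on low counts, where 2682 of 33375 genes passed. With the GC trend removed 9 passed, and 3601 of 15229 genes did. Leaving out m3 moved the call of Chga, Tph1 and Gcg and leaving out m2 that of Tph1. In the blocked fit, Pyy, Nts and Sct, with 5 to 228 counts per library, had the largest standard errors in each comparison.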
